A study of Mus musculus with 8 samples.

Results

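Glycolysis and the response to low oxygen were followed in mouse keratinocytes through a list of 37 genes, taken as the rows of the intensity table annotated to exactly 1 of those symbols, with the brightest row kept where a gene had several. Of the 37 genes, 31 had such a row, among 14860 genes and 23332 transcript clusters in all. The 6 others were Gpi1, Gapdh, Pgk1, Eno1 and Ldha, for which no row carried the symbol, and Pgam1, whose row was shared with Mdh1, and they were not analysed as members here. The parent line MK546, called the null line, was made by immortalizing keratinocytes of α3-null neonatal mice with SV40 large T antigen. The α3 line carried human α3 by stable transfection, the α9 line carried human α9 by retroviral transduction, and the α3α9 line carried both, all in the same α3-deficient background. Each line had 2 arrays. The labels do not say whether a derived line was 1 clone or a pool, nor whether its arrays came from separate cultures, so the spread behind each p-value may be technical. Per the labels' protocols, every line grew at 33 °C and 8% CO2 on collagen (30 µg per ml). The medium was of low calcium (0.05 mM) with 4% FBS (fetal bovine serum), 5 µg per ml insulin, 10 ng per ml EGF, 0.4 µg per ml hydrocortisone and 10 units per ml interferon-γ.

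Glycolysis splits glucose into pyruvate in a chain of cytosolic enzymes, and keratinocytes, which live at some distance from blood vessels, send much of that pyruvate to lactate. Glucose enters through the transporter GLUT1 and is trapped by hexokinase, and flux is set in large part at phosphofructokinase, whose strongest activator, fructose 2,6-bisphosphate, is made and removed by the bifunctional PFKFB enzymes. When oxygen falls, prolyl hydroxylases of the EGLN family stop marking HIF-1α for destruction, and HIF-1 raises genes of glucose uptake, glycolysis, lactate export and collagen modification. TXNIP restrains glucose uptake and binds thioredoxin, and its gene is raised by glucose through the MondoA and ChREBP transcription factors.

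HIF-1, MondoA and ChREBP act through short motifs, often near a gene's start. Of the 8 members whose levels differed among the lines, Ndrg1 had no promoter window, and the windows of Pfkl and Pfkm are not printed. The promoters of the 5 others are shown first, and they need not stand for all 8. Each is the 250 bases before a RefSeq start in assembly GRCm38.p6, 5′ to 3′ on the gene's strand. Capitals mark matches on either strand to the hypoxia response element cores ACGTG and GCGTG, to the E box CACGTG (which holds ACGTG on both strands), and to 2 copies of CACGAG set 5 bases apart, with those 5 bases, a paired E-box-like element of the kind bound by MondoA and ChREBP. Pfkfb3 has 2 starts in the table and both are printed, and the first listed of the 3 starts of Pfkfb2 is printed.
Txnip, chr3:96557707-96557956 on the plus strand: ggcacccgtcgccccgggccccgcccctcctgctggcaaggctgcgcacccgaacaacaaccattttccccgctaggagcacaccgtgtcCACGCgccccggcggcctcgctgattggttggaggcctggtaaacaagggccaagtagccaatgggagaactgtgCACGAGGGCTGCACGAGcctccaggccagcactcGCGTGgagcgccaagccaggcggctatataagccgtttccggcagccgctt
Pfkfb3 start 1, chr2:11553930-11554179 on the minus strand: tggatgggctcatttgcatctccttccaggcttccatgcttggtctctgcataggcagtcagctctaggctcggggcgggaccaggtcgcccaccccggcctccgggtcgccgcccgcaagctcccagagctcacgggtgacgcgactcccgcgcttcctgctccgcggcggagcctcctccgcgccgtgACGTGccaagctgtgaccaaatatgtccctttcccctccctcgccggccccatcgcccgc
Pfkfb3 start 2, chr2:11502091-11502340 on the minus strand: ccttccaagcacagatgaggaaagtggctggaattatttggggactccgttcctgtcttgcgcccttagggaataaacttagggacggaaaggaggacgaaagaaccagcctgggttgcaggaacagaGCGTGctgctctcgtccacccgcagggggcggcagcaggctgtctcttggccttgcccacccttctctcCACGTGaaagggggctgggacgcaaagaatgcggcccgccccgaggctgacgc
Pfkfb2, chr1:130715822-130716071 on the minus strand: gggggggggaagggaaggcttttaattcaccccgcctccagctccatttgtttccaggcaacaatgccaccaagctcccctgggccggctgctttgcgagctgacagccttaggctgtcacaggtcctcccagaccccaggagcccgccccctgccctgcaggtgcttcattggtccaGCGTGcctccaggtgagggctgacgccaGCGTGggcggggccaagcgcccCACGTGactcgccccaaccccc
P4ha2, chr11:54100674-54100923 on the plus strand: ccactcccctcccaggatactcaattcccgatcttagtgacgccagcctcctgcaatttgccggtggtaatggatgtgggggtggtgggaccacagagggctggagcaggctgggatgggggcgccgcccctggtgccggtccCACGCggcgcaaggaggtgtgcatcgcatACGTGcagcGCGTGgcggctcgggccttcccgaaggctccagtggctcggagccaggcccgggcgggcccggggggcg
Egln3, chr12:54203875-54204124 on the minus strand: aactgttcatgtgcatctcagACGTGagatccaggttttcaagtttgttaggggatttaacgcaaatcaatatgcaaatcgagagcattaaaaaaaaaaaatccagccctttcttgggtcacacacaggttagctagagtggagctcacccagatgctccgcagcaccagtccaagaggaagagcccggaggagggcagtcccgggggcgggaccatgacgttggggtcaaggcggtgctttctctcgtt

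In the Txnip window the paired element begins 85 bases before the start, and it was added to the search after the sequence had been read. It occurred in 1 of the 32851 promoter windows of the table, this one. Only this exact spelling, read from this window, was searched, so the count does not measure how rare such elements are. ACGTG occurred in 26 of the 51 windows of 36 members (51.0%) and in 16.6% of all windows. For GCGTG the shares were 54.9% and 28.2%, and for the full E box 15.7% and 6.02%. Hypoxia-responsive genes were put on the list for their known control, and windows of one gene can overlap, so these shares are a description. A match is a run of letters and not a measured binding site.

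Values are the deposited intensities on a linear scale. Changes are log2 changes of intensity + 16 with their standard errors (SE), and adjusted p comes from limma fitted over all 23332 clusters, with a threshold of 0.05. Array medians ran from 82.8 to 127, both in the α3α9 line, and 2 arrays per line limit the precision. Of 8 keratinocyte markers 7 were measured, each above 100 on average, led by the basal keratin Krt5 at 13905. Of 6 fibroblast markers 3 were above 100, the highest Col1a1 at 212, and of 5 melanocyte and 6 endothelial markers 0 were. The probes were made for mouse transcripts, so the introduced human subunits were not checked by them, and whether human transcripts reach them was not tested. The rows of mouse Itga3 and Itga9 passed no comparison. Itga3 gave 1008 and 934 on the null arrays. Itga9 ran from 53.6 to 78.5 on arrays with α9 and from 39.0 to 52.7 without, higher with no overlap, as in 14.0% of all clusters. The arrays of the null and α3 lines are marked as re-analysis in their titles and those of the α9 and α3α9 lines are not, so a difference with α9 and a difference between these 2 sets of arrays cannot be told apart. The clusters lie in chromosome order by number, and 30 of the 31 members lay among clusters of their own chromosome. The exception was the row annotated to Pkm, the muscle pyruvate kinase gene of chromosome 9, whose 73 neighbours with a known place were all on chromosome 5, so its values may belong to another locus.

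Of the 31 members, 8 differed among the 4 lines by limma's F test: Pfkfb3, Pfkfb2, Pfkm, Pfkl, Ndrg1, P4ha2, Egln3 and Txnip. That was 25.8% of the members, beside 10.4% of all clusters and 12.4% of clusters that stand for 1 gene. The members were chosen with earlier results of these data known, so such shares, here and in the comparisons below, are a description. Members were also brighter than most clusters: 18 of the 31 averaged at least 500, beside a median of 105 over all clusters. By their values, arrays with α9 were the higher ones for Pfkfb3, Pfkfb2, Pfkm and Ndrg1 and the lower ones for Txnip. Arrays with α3 were higher for P4ha2 and lower for Pfkl, which was also higher with α9, both without and with α3. Egln3 was highest in the null line. The 23 others did not pass. Without null replicate 1 the count was 4, without α3 replicates 1 and 2 it was 5 and 5, and after quantile normalization it was 14, beside 31.7% of all clusters there. The map of the members by array shows these groups.

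**Figure D1:**
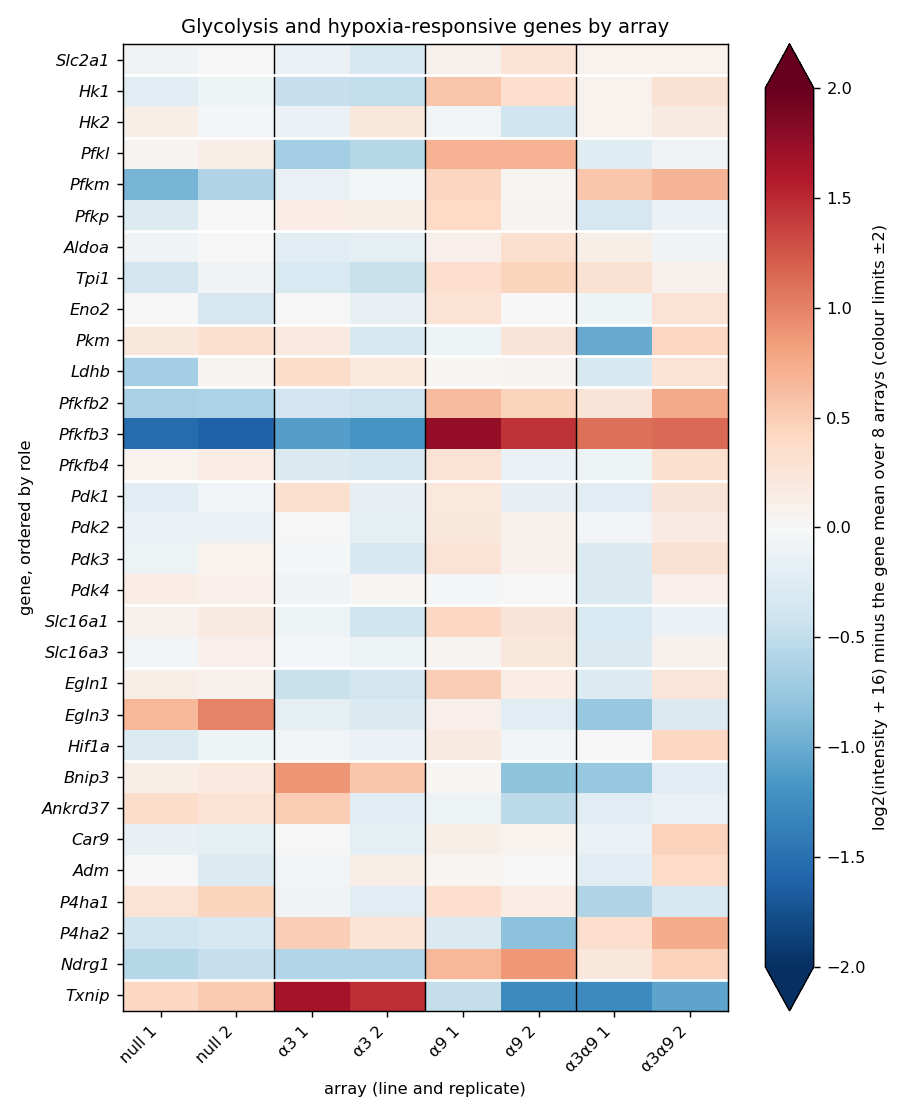
Log2(intensity + 16) of each of the 31 members on each of the 8 arrays, minus the gene's own mean over the arrays; red is above and blue below that mean, and white lines separate roles. Pfkfb3 is blue on the 4 arrays without α9 and red on the 4 with it, and Txnip is red on the arrays without α9 and blue on those with it.

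The PFKFB enzymes held the largest rise. Pfkfb3 encodes the isoform with the highest ratio of kinase to phosphatase activity, which favours glycolysis. It gave 208 and 197 on the null arrays, 287 and 272 on the α3 arrays, 2177 and 1759 on the α9 arrays and 1389.9 and 1416 on the α3α9 arrays. The 4 arrays with α9 lay far above the 4 without, and the order of the lines was null, α3, α3α9 and α9. Against null, the α9 line was 9.71-fold higher, a log2 change of 3.17 ± 0.20 (adjusted p = 1.1e-04), and the α3α9 line was 5.02-fold above the α3 line (2.27 ± 0.20, adjusted p = 5.2e-04). Both calls held without each array in turn and in all other settings tried. Of the other neighbours in the order, α3 against null gave 0.43 ± 0.20 (adjusted p = 0.48), and α3α9 against α9 gave -0.48 ± 0.20 (adjusted p = 0.39), and neither passed.

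Pfkfb2, an isoform that insulin and growth factor signalling activates by phosphorylation in heart, gave 672 and 683 on the null arrays, 812 and 794 on the α3 arrays, 1657 and 1464 on the α9 arrays and 1284 and 1819 on the α3α9 arrays. The arrays with α9 again lay above all others, while the α3α9 pair was the most spread. Pfkfb2 rose 2.3-fold in the α9 line against null (1.18 ± 0.22, adjusted p = 0.019), and the α3α9 line stood 0.91 ± 0.22 above the α3 line (adjusted p = 0.055, past the threshold after quantile normalization at 0.0052). Without null replicate 1, null replicate 2, α9 replicate 1 and α9 replicate 2 the first adjusted p was 0.16, 0.13, 0.12 and 0.068, and it was 0.073 with a pseudocount of 1. The F test of Pfkfb2 gave adjusted p = 0.013, and 0.053 without null replicate 1. Pfkfb4, an isoform raised by hypoxia in many cells, ran from 117 to 191 over the 8 arrays and passed no comparison (α3 minus null -0.42 ± 0.23, adjusted p = 0.6), although that fall passed after quantile normalization (-0.56 ± 0.10, adjusted p = 0.024).

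Of the 3 phosphofructokinase genes, which encode the subunits of the enzyme that commits sugar to glycolysis, Pfkl and Pfkm differed among the lines, in different ways. Pfkl, the liver-type subunit, gave 1757 and 1853 on the null arrays, 1045 and 1129 on the α3 arrays, 2731 and 2730.0 on the α9 arrays and 1421 and 1610.4 on the α3α9 arrays. It was lowest in the α3 line and highest in the α9 line, and within each pair of lines the one with α3 was lower, with no overlap. The differences with α3 were -0.72 ± 0.19 without α9 (adjusted p = 0.14) and -0.85 ± 0.19 with it (adjusted p = 0.065), short of the threshold on the deposited scale and past it after quantile normalization (adjusted p = 0.035 and 0.024). With α9, Pfkl was higher by 0.59 ± 0.19 against null and 0.47 ± 0.19 against α3, again with no overlap. Neither passed on the deposited scale (adjusted p = 0.12 and 0.21), and the first passed with a pseudocount of 64. The F test of Pfkl gave adjusted p = 0.011, and without α3 replicate 1, α3 replicate 2, α9 replicate 1 and α9 replicate 2 it gave 0.073, 0.058, 0.051 and 0.052.

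Pfkm, the muscle-type subunit, gave 239 and 303 on the null arrays, 426 and 454 on the α3 arrays, 637 and 482 on the α9 arrays and 695 and 764 on the α3α9 arrays. It was lowest in the null line, and the arrays with α9 lay above those without. Pfkm rose 2.06-fold in the α9 line against null (1.00 ± 0.22, adjusted p = 0.036). The α3α9 line stood 0.71 ± 0.22 above the α3 line (adjusted p = 0.11), and the α3 line 0.68 ± 0.22 above null (adjusted p = 0.26). The α9 call was lost without null replicate 1, null replicate 2, α3 replicate 1, α3 replicate 2, α9 replicate 1 and α9 replicate 2, with adjusted p = 0.32, 0.12, 0.071, 0.071, 0.23 and 0.07, and it was 0.095 with a pseudocount of 1 and 0.053 with these 2 lines alone. Its F test gave adjusted p = 0.015, and 0.11 without null replicate 1. Pfkp, the platelet-type subunit, ran from 532 to 898 and passed no comparison on the deposited scale, while α3α9 minus α3 (adjusted p = 0.41 there) passed after quantile normalization (-0.56 ± 0.13, adjusted p = 0.029) and after centring on bright clusters (adjusted p = 0.036).

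**Figure D2:**
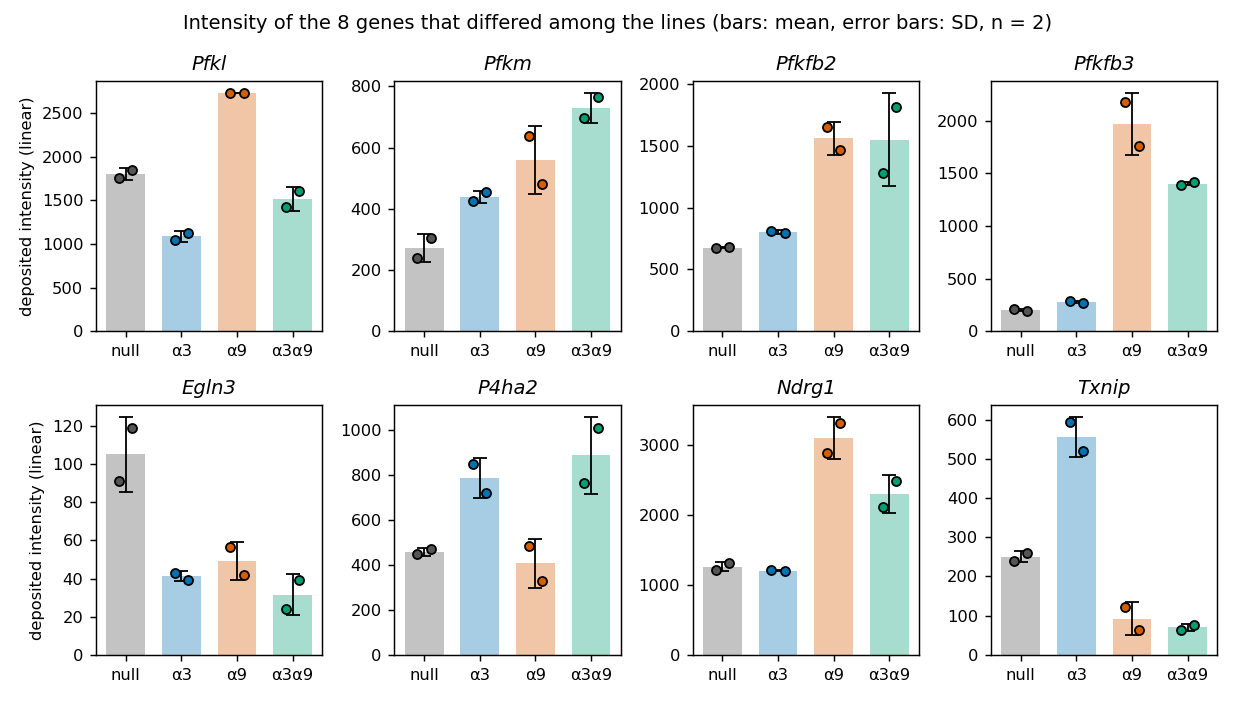
Deposited linear intensity of the 8 members that passed the F test among the lines, with 1 point per array, bars for the mean of each line and error bars for the SD (n = 2). Pfkfb2, Pfkfb3 and Ndrg1 are high in both lines with α9, Txnip is low there, and P4ha2 is high in both lines with α3.

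At glucose uptake and phosphorylation no comparison passed on the deposited scale. Slc2a1, which encodes GLUT1, gave 3917 ± 154 for null, 3451 ± 336 for α3, 4561 ± 414 for α9 and 4199.6 ± 17.8 for α3α9 (mean ± SD, n = 2). The arrays with α9 lay above those without on the deposited scale, the widest difference being 0.29 ± 0.20 for α3α9 minus α3 (adjusted p = 0.48). After quantile normalization the differences with α9 were 0.02 ± 0.14 against null and 0.21 ± 0.14 against α3, and neither passed. Hk1, the hexokinase found in most tissues, gave 825 and 909.5 on the null arrays, 693 and 678 on the α3 arrays, 1427 and 1214 on the α9 arrays and 1014 and 1190.0 on the α3α9 arrays. All arrays with α9 exceeded all without. The differences, 0.59 ± 0.20 against null and 0.67 ± 0.20 against α3, did not pass (adjusted p = 0.13 and 0.1), nor did the F test (adjusted p = 0.051). After quantile normalization the second passed (0.49 ± 0.12, adjusted p = 0.033). Hk2, the isoform that insulin and HIF-1 induce, gave 870.0 and 793 on the null arrays, 741 and 943 on the α3 arrays, 775 and 604 on the α9 arrays and 841 and 916 on the α3α9 arrays. Both α9 arrays lay below the null arrays and below the α3α9 arrays, but neither difference passed (-0.27 ± 0.22 for α9 minus null and 0.35 ± 0.22 for α3α9 minus α9, adjusted p = 0.54 and 0.64).

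In the lower part of glycolysis 5 members had rows, and none passed a comparison in the fit on the deposited scale. Aldoa, the main aldolase of most tissues, gave 12248 ± 408 for null, 11017 ± 164 for α3, 14691 ± 1558 for α9 and 12862 ± 1253 for α3α9 (mean ± SD, n = 2). Tpi1, triose phosphate isomerase, gave 7998 and 9865 on the null arrays, 8384 and 7573 on the α3 arrays, 13048 and 14109 on the α9 arrays and 12761 and 10910.0 on the α3α9 arrays. Its arrays with α9 all lay above those without, at 1.52-fold the null line and 1.48-fold the α3 line (0.61 ± 0.21 and 0.57 ± 0.21, adjusted p = 0.13 and 0.16), and both passed when the variance followed an intensity trend (adjusted p = 0.032 and 0.047). Eno2, the neuronal enolase, was dim at 19.3 to 38.2, and Ldhb, the lactate dehydrogenase subunit common in heart, ran from 29.05 to 77.3. A second row annotated to Ldhb ran from 7.94 to 30.6, lay among clusters of chromosome 19 and not of chromosome 6, and was set aside. The row annotated to Pkm gave 403 and 427 on the null arrays, 394 and 269 on the α3 arrays, 319 and 408 on the α9 arrays and 162 and 458 on the α3α9 arrays. Its widest gap lay within the α3α9 line.

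The fate of pyruvate was represented by 4 pyruvate dehydrogenase kinases, which close its entry into mitochondria, and by 2 monocarboxylate transporters, which carry lactate across the membrane. No kinase passed a comparison. Pdk1, a HIF-1 target, ran from 856 to 1249 and Pdk3 from 899 to 1389, with the lowest and highest arrays of Pdk3 at 899 in the α3 line and 1389 in the α3α9 line. Pdk2 (35.02 to 51.9) and Pdk4 (32.3 to 49.3), the isoform raised by fasting and glucocorticoids, were dim on every array. Slc16a1, which encodes the transporter MCT1, gave 3728 and 3992 on the null arrays, 3267 and 2658 on the α3 arrays, 4722 and 4203 on the α9 arrays and 2852 and 3256 on the α3α9 arrays. Both lines with α3 lay below both without, but neither difference passed on the deposited scale (-0.39 ± 0.21 and -0.55 ± 0.21, adjusted p = 0.58 and 0.32), and the second passed after quantile normalization (-0.45 ± 0.11, adjusted p = 0.047). Slc16a3, which encodes MCT4, the lactate exporter of glycolytic cells, ran from 52.9 to 82.03 and passed nothing.

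Among the oxygen-sensing genes Egln3 differed among the lines. Egln3 encodes the prolyl hydroxylase PHD3, itself a well-known hypoxia-induced gene, and gave 91.1 and 119 on the null arrays, 42.98 and 39.4 on the α3 arrays, 56.4 and 42.1 on the α9 arrays and 24.00 and 39.2 on the α3α9 arrays. The null arrays lay above all 6 others. The α3 line stood at 0.392 times the null line (-1.07 ± 0.24, adjusted p = 0.072) and the α9 line at 0.469 times (-0.89 ± 0.24, adjusted p = 0.068), each just short of the threshold and past it after quantile normalization (adjusted p = 0.0063 and 0.0048). The F test gave adjusted p = 0.021, 0.075 with a pseudocount of 1, and 0.07, 0.16, 0.06 and 0.062 without null replicate 1, null replicate 2, α3 replicate 1 and α3 replicate 2. Most of these values are under 100, and the files give no background level to set them against.

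Egln1, which encodes PHD2, the main oxygen sensor of most cells, gave 810.3 and 789 on the null arrays, 539 and 568 on the α3 arrays, 1046 and 821 on the α9 arrays and 606 and 876 on the α3α9 arrays. The α3 arrays were the lowest of all, and the difference from null was -0.52 ± 0.23 (adjusted p = 0.47 as deposited), past the threshold after quantile normalization (0.039), centring on array medians (0.031) and scaling to a common median (0.031). Hif1a, which encodes the oxygen-regulated subunit of HIF-1 and is controlled mainly as a protein, gave 3319 ± 290.0 for null, 3554 ± 121 for α3, 3944 ± 470.3 for α9 and 4417 ± 873 for α3α9 (mean ± SD, n = 2). Its comparisons between lines ran from 0.10 to 0.30 and none passed (lowest adjusted p = 0.51).

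Of the 7 hypoxia-responsive members, Ndrg1 rose with α9 in both comparisons. Ndrg1, a stress- and differentiation-responsive gene induced by hypoxia in many cell types, gave 1213 and 1310.0 on the null arrays, 1208 and 1198 on the α3 arrays, 2883 and 3315 on the α9 arrays and 2112 and 2489 on the α3α9 arrays. The null and α3 arrays lay close together, and every array with α9 lay well above them. The α9 line was 2.46-fold the null line (1.28 ± 0.20, adjusted p = 0.0097) and the α3α9 line 1.91-fold the α3 line (0.92 ± 0.20, adjusted p = 0.04). Without null replicate 1, null replicate 2 and α9 replicate 2 the first adjusted p was 0.12, 0.077 and 0.067. Without null replicate 1, null replicate 2, α3 replicate 1, α3 replicate 2, α9 replicate 1 and α9 replicate 2 the second was 0.089, 0.089, 0.23, 0.23, 0.055 and 0.055, and it was 0.1 with a pseudocount of 1 and 0.11 with these 2 lines alone. The difference among lines held without each array (F test, adjusted p = 0.005).

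The α subunits of collagen prolyl 4-hydroxylase, which make collagen stable by hydroxylating its prolines, lay on opposite sides with α3. P4ha2 gave 447 and 473 on the null arrays, 849.8 and 723 on the α3 arrays, 484 and 331 on the α9 arrays and 766 and 1010.4 on the α3α9 arrays. The 4 arrays with α3 lay above the 4 without, by 0.75 ± 0.24 in the absence of α9 (adjusted p = 0.26) and 1.11 ± 0.24 in its presence (adjusted p = 0.057), past the threshold after quantile normalization (adjusted p = 0.011 and 0.0025). Its F test gave adjusted p = 0.033, 0.11 with a pseudocount of 1, and 0.086, 0.075, 0.1, 0.081 and 0.084 without null replicate 1, null replicate 2, α3 replicate 1, α3 replicate 2 and α9 replicate 2. P4ha1 gave 1046 and 1168 on the null arrays, 809.6 and 726 on the α3 arrays, 1074 and 944 on the α9 arrays and 553 and 682 on the α3α9 arrays. All arrays with α3 lay below all without, with differences of -0.52 ± 0.21 and -0.70 ± 0.21 that did not pass as deposited (adjusted p = 0.4 and 0.17) and did after quantile normalization (adjusted p = 0.028 and 0.01).

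Bnip3, a mitochondrial protein that triggers mitophagy and a classical HIF-1 target, gave 608 and 634 on the null arrays, 1026 and 816 on the α3 arrays, 558 and 307 on the α9 arrays and 319 and 469 on the α3α9 arrays. The α3 arrays were the highest and every array with α9 lay below every array without. The α3α9 line stood at 0.428 times the α3 line (-1.21 ± 0.30, adjusted p = 0.059, and 0.0032 after quantile normalization), and the α9 line at 0.697 times null (-0.56 ± 0.30, adjusted p = 0.33, and 0.024 after). Ankrd37, another HIF-1 target, gave 77.6 ± 3.81 for null, 68.7 ± 29.4 for α3, 44.7 ± 12.4 for α9 and 49.97 ± 2.56 for α3α9 (mean ± SD, n = 2) and passed nothing on the deposited scale. After centring on bright clusters its α9 minus null difference passed (adjusted p = 0.039). Car9, the cell-surface carbonic anhydrase used as a marker of hypoxic tissue, ran from 32.5 to 60.5, and Adm, the vasodilator peptide adrenomedullin, from 23.7 to 46.4. Both stayed dim in every line.

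Txnip, whose promoter with the paired element is printed above, had the largest fall. It gave 240.1 and 261 on the null arrays, 593 and 521 on the α3 arrays, 122 and 63.2 on the α9 arrays and 63.3 and 76.9 on the α3α9 arrays. The α3 line was highest, the null line lay between, and all arrays with α9 were below all without. The α3α9 line stood at 0.126 times the α3 line (-2.73 ± 0.27, adjusted p = 9.8e-04), a call that held without each array and in all settings tried. The α9 line stood at 0.37 times null (-1.35 ± 0.27, adjusted p = 0.025), which was lost without null replicate 1, null replicate 2 and α9 replicate 2 (adjusted p = 0.13, 0.14 and 0.13), with a pseudocount of 1 (0.09) and with these 2 lines alone (0.053). With α3 alone Txnip stood 2.22-fold above null (1.10 ± 0.27, adjusted p = 0.11), past the threshold after quantile normalization (1.04 ± 0.20, adjusted p = 0.029) and without α9 replicate 1 or 2 (adjusted p = 0.044 and 0.044). The α3α9 and α9 lines did not differ beyond their spread (-0.29 ± 0.27, adjusted p = 0.82).

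The comparisons with α9 asked what differs when human α9 is added to cells without and with α3, and they share no array. Between the α9 and null lines 5 members passed, 4 higher (Pfkfb3, Ndrg1, Pfkfb2 and Pfkm) and 1 lower (Txnip). That was 16.1% of members, beside 4.32% of all clusters (3.50% higher and 0.823% lower). Between the α3α9 and α3 lines 3 passed, Pfkfb3 and Ndrg1 higher and Txnip lower, 9.68% beside 3.28% of all clusters (2.14% and 1.14%). The median change of the members was 0.21 and 0.16, and that of all clusters 0.16 and 0.10. After quantile normalization the members' medians were 0.01 and 0.01, and those of all clusters 0.0045 and 0.042. In the deposited values, all arrays with α9 lay above all without in 7 members (Slc2a1, Hk1, Pfkm, Tpi1, Pfkfb2, Pfkfb3 and Ndrg1), as in 14.0% of all clusters. They lay below in 2 (Bnip3 and Txnip), as in 3.24%. Such overlap was not examined after rescaling, and the α9 minus null change of Slc2a1 was 0.02 ± 0.14 after quantile normalization.

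The first count fell when any array of the null or α9 line was left out. Both counts rose without either α3α9 array, although the first comparison does not hold that line. Leaving out an array leaves a single one in its line and changes the shared estimate of spread, so these shifts need not be traits of single arrays. After quantile normalization 4 members were higher (the same genes) and 3 lower (Txnip, Egln3 and Bnip3) in the α9 line, against 8.84% and 8.30% of all clusters (17.1% in either direction). In the α3α9 line 4 were higher (Pfkfb3, Pfkfb2, Ndrg1 and Hk1) and 4 lower (Txnip, Bnip3, P4ha1 and Pfkp), against 10.1% and 8.75% (18.8%). The summed level of 6 leukocyte markers ran from 561 to 715 on the null arrays, 711 to 746 on the α3 arrays, 1085 to 1270.5 on the α9 arrays and 744 to 1009 on the α3α9 arrays, and was highest with α9 alone. Most of that sum was Cd68, a lysosomal protein, which rose in the α9 line against null (1.11 ± 0.25, adjusted p = 0.037), while Ptprc, the pan-leukocyte marker, ran from 21.95 to 36.5, and their part in the result was not tested. The plot of changes with α9 sets both comparisons side by side.

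**Figure D3:**
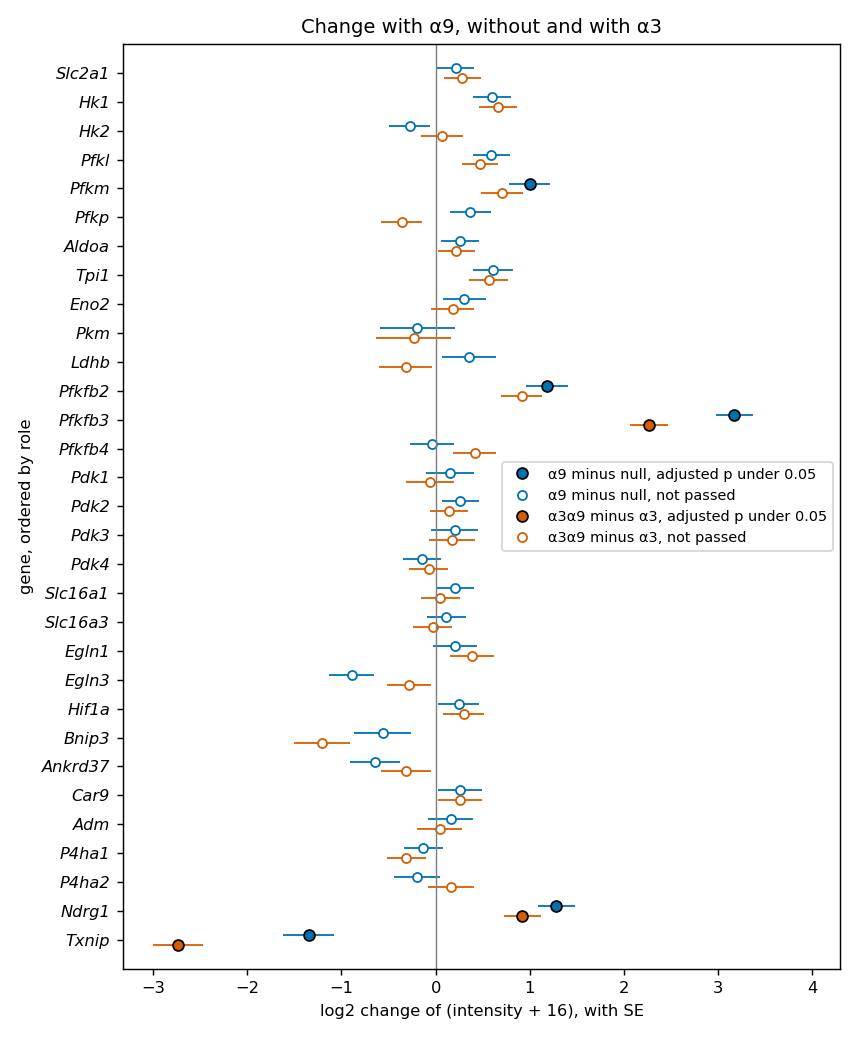
Log2 change of (intensity + 16) with α9 for each member, with its SE, in the absence of α3 (blue) and in its presence (orange); filled points passed an adjusted p of 0.05. Pfkfb3 lies farthest to the right at 3.17 and 2.27, and Txnip farthest to the left at -1.35 and -2.73.

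The comparisons with α3 asked what differs when human α3 is restored to cells without and with α9. By limma no member passed on the deposited scale in either, beside 1.30% and 1.87% of all clusters. At an unadjusted p under 0.05 the numbers were 6 and 5 of 31. The share of all clusters at that level was not counted, so these numbers are a description. The median change was -0.07 without α9 and -0.12 with it, beside 0.01 and -0.06 over all clusters. Arrays with α3 all lay above those without in 1 member, P4ha2 (3.28% of all clusters), and all below in 3, Pfkl, Slc16a1 and P4ha1 (2.28%). After quantile normalization 7 members passed without α9, P4ha2 and Txnip higher and Pfkl, Pfkfb4, P4ha1, Egln1 and Egln3 lower, beside 8.21% of all clusters (4.46% and 3.75%). With α9 there were 4, P4ha2 higher and Pfkl, P4ha1 and Slc16a1 lower, beside 9.96% (5.67% and 4.29%). On the deposited scale 1 member passed without α9 replicate 1 or 2 (Txnip) and without α3α9 replicate 1 or 2 (Egln3), and Pfkl passed with α9 present without α3α9 replicate 2.

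**Figure D4:**
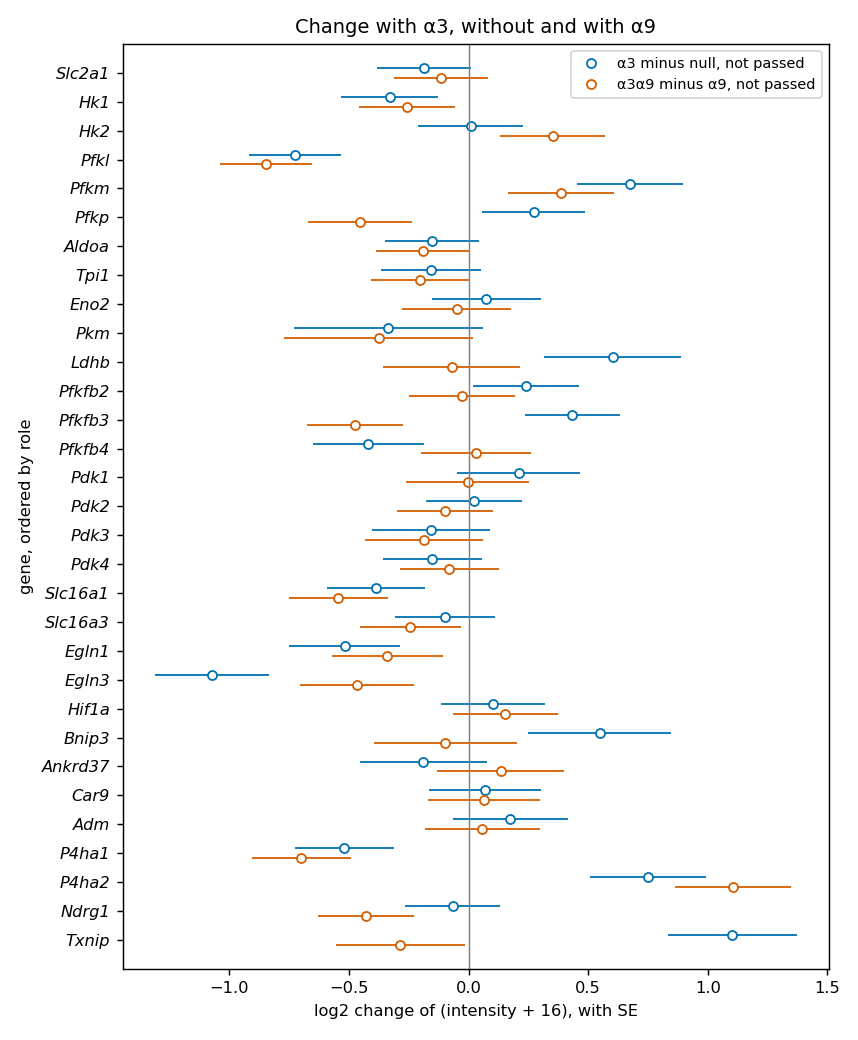
Log2 change of (intensity + 16) with α3 for each member, with its SE, in the absence of α9 (blue) and in its presence (orange). No point is filled, since none passed on the deposited scale; P4ha2 lies to the right in both (0.75 and 1.11), and Pfkl to the left in both (-0.72 and -0.85).

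The interaction asked whether the α3 difference changes when α9 is present, a contrast in which a constant shift between the 2 sets of arrays cancels. By limma no member passed, beside 0.0857% of all clusters, and 3 of 31 had an unadjusted p under 0.05, Pfkfb3, Txnip and Pfkp. The share of all clusters at that unadjusted level was not counted. Txnip had the largest interaction, -1.39 ± 0.38 (unadjusted p = 0.0046, adjusted p = 0.46), and it passed where only clusters with 1 gene were tested (adjusted p = 0.015). Most of its values with α9 may lie near background. Pfkfb3 gave -0.91 ± 0.28 (adjusted p = 0.57) and Pfkp -0.73 ± 0.31 (adjusted p = 0.85). The SE of the Txnip interaction was 0.38, against 0.27 for its comparison of 2 lines.

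**Figure D5:**
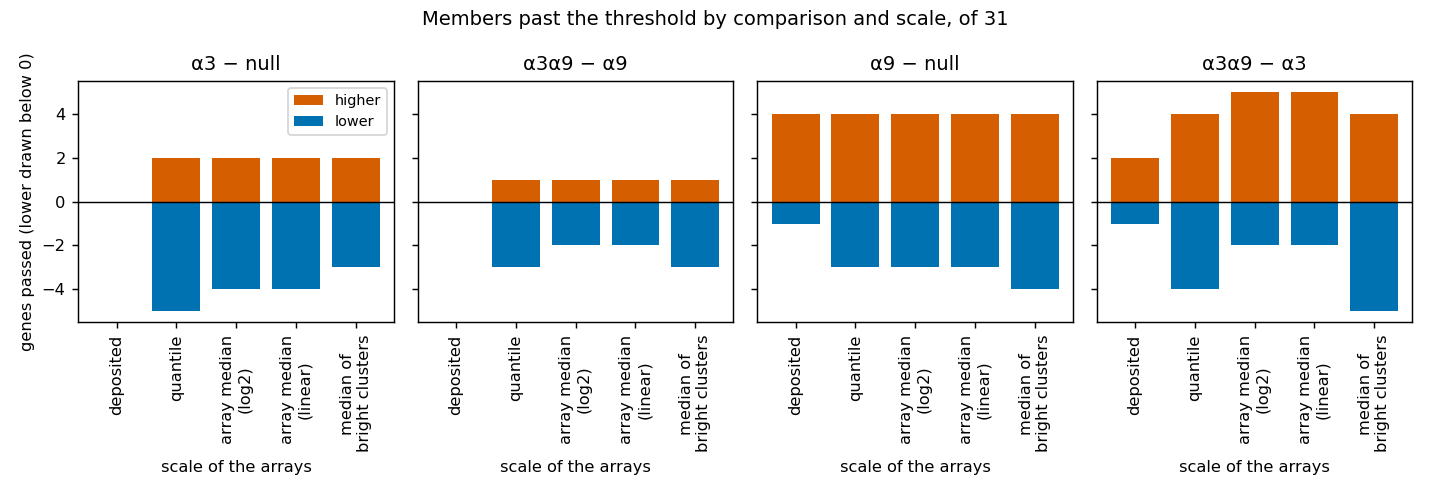
Number of the 31 members past an adjusted p of 0.05 in each comparison of 2 lines, higher above 0 and lower below it, on the deposited scale and after 4 ways of bringing the arrays to a common scale. On every scale 4 members are higher in the α9 line than in the null line, while the α3 comparisons have none on the deposited scale and some on each of the 4 others. The share of all clusters was counted for the deposited scale and quantile normalization alone, and it was larger after quantile normalization in each comparison.

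Other genes of these pathways came from 7 lists that together held 117 measured genes beyond the members. Of these, 9 were higher and 1 lower in the α9 line against null (8.55%, beside 4.32% of all clusters), and 4 and 2 in the α3α9 line against α3 (5.13%, beside 3.28%). With α3 they were 4 and 0 without α9 (3.42%, beside 1.30%) and 4 and 1 with it (4.27%, beside 1.87%). Of 17 other glycolysis isoforms and transporters 1 rose with α3 in both comparisons. This was Eno3, the muscle enolase, which gave 108 and 107 on the null arrays, 848 and 688 on the α3 arrays, 239.6 and 209.6 on the α9 arrays and 767 and 1135 on the α3α9 arrays. All arrays with α3 lay far above those without, 7.12-fold without α9 (2.65 ± 0.24, adjusted p = 3.5e-04) and 4.23-fold with it (1.98 ± 0.24, adjusted p = 0.0026), and both calls held without each array. None of that list passed with α9.

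Of 21 genes of mitochondrial pyruvate entry and the TCA cycle 1 rose with α3 in the presence of α9. Idh2, the mitochondrial NADP-dependent isocitrate dehydrogenase, gave 251 and 279 on the null arrays, 496 and 443 on the α3 arrays, 230.4 and 179 on the α9 arrays and 699 and 765 on the α3α9 arrays, and the change (1.77 ± 0.21, adjusted p = 0.0024) held without each array. Pcx, pyruvate carboxylase, was 2.43-fold higher in the α3α9 line than in the α3 line (1.20 ± 0.23, adjusted p = 0.027). The median change of this list was 0.17 with α9 in the absence of α3 and 0.16 in its presence. Of 10 pentose phosphate genes 1 rose, H6pd in the α9 line (1.13 ± 0.24, adjusted p = 0.032), and of 13 glycogen and gluconeogenesis genes 1, the glycogen phosphorylase gene Pygb in the same comparison (0.94 ± 0.20, adjusted p = 0.031). Leaving out 1 array ended the calls of Pcx without either α3 array (adjusted p = 0.14 to 0.2), H6pd without any null, α3 or α9 array (adjusted p = 0.053 to 0.21) and Pygb without any null, α3 or α9 array (adjusted p = 0.066 to 0.26).

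Of 12 genes of oxygen sensing and HIF subunits 3 rose in the α9 line against null and none fell. Arnt, which encodes HIF-1β, the constitutive partner of HIF-1α, gave 929 and 1035 on the null arrays, 757 and 682 on the α3 arrays, 2015 and 1898 on the α9 arrays and 1223 and 1567 on the α3α9 arrays. It was higher with α9 both against null (0.98 ± 0.21, adjusted p = 0.03) and against α3 (0.93 ± 0.21, adjusted p = 0.044). The others were Cited2, which competes with HIF-1α for its coactivator (1.51 ± 0.24, adjusted p = 0.011), and the MYC antagonist Mxi1 (1.43 ± 0.27, adjusted p = 0.02), and both stand on the next list too. Of 42 other hypoxia-responsive genes 6 rose and 1 fell in the α9 line, among them the vasoconstrictor endothelin gene Edn1 (1.66 ± 0.27, adjusted p = 0.011) and the transcriptional repressor Bhlhe40 (1.18 ± 0.21, adjusted p = 0.015). The gene that fell was Tfrc, the transferrin receptor (-0.94 ± 0.22, adjusted p = 0.044), named after its value was seen. In the α3α9 line against α3, Rab20 (1.29 ± 0.25, adjusted p = 0.026) and the collagen lysyl hydroxylase Plod1 (1.11 ± 0.21, adjusted p = 0.023) rose and Fam162a, a mitochondrial HIF-1 target, fell (-1.37 ± 0.22, adjusted p = 0.011). Leaving out 1 array ended the calls in the α9 line of Arnt without any null, α3 or α9 array (adjusted p = 0.062 to 0.27), Cited2 without either null array or α9 replicate 2 (adjusted p = 0.069 to 0.088), Mxi1 without either null array or α9 replicate 1 (adjusted p = 0.053 to 0.18), Edn1 without either null array or α9 replicate 1 (adjusted p = 0.063 to 0.074) and Bhlhe40 without any null or α9 array (adjusted p = 0.07 to 0.19). In the α3α9 line against α3 it ended those of Arnt without any null, α3 or α9 array or α3α9 replicate 2 (adjusted p = 0.059 to 0.27), Rab20 without either α3 array or α3α9 replicate 2 (adjusted p = 0.052 to 0.17), Plod1 without either α3 array (adjusted p = 0.12 to 0.2) and Fam162a without either α3 array (adjusted p = 0.086 to 0.12).

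With α3 in the absence of α9, 3 of the 42 rose and none fell, Edn1 (1.38 ± 0.27, adjusted p = 0.037), Fam162a (1.27 ± 0.22, adjusted p = 0.021) and the mitochondrial adenylate kinase Ak4 (0.98 ± 0.20, adjusted p = 0.046). Fam162a gave 1902 and 2069 on the null arrays, 5100.1 and 4514 on the α3 arrays, 1782 and 1590.2 on the α9 arrays and 1574 and 2158 on the α3α9 arrays. It stood highest in the α3 line, as Bnip3 and Txnip did. With α9 present, Ak4 (1.08 ± 0.20, adjusted p = 0.023) and Rab20 (1.25 ± 0.25, adjusted p = 0.035) rose with α3 and Bhlhe40 fell (-1.36 ± 0.21, adjusted p = 0.0094). Of 10 genes around Txnip, 1 passed in a comparison of 2 lines. Arrdc4, the arrestin-family relative of Txnip that MondoA also controls, gave 648 and 672 on the null arrays, 993 and 804 on the α3 arrays, 708 and 595 on the α9 arrays and 285 and 429 on the α3α9 arrays, and was lower in the α3α9 line than in the α3 line (-1.31 ± 0.24, adjusted p = 0.022). Leaving out 1 array ended, in the absence of α9, the calls of Edn1 without any null or α3 array (adjusted p = 0.16 to 0.32), Fam162a without any null or α3 array (adjusted p = 0.11 to 0.25) and Ak4 without any null, α3 or α9 array (adjusted p = 0.076 to 0.38). In its presence it ended those of Ak4 without any null, α3 or α9 array (adjusted p = 0.054 to 0.17), Rab20 without any null or α3 array or α9 replicate 2 or α3α9 replicate 2 (adjusted p = 0.056 to 0.26) and Bhlhe40 without either α9 array (adjusted p = 0.0505 to 0.072), and the fall with α9 ended for Arrdc4 without either α3 array (adjusted p = 0.1 to 0.19). Of the 22 calls named from the lists by their rule, 22 passed after quantile normalization. That setting raised the share of all clusters called in each of these comparisons, as from 4.32% to 17.1% for α9 minus null. Passing there therefore says little about stability. With a pseudocount of 1, 19 were lost, the others being both of Eno3 and that of Idh2.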

How the data were processed

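RNA of 4 keratinocyte lines was measured on the Affymetrix Mouse Exon 1.0 ST array, 2 arrays per line, 8 in all. The authors deposited a linear intensity for each transcript cluster on each array, made with Affymetrix Expression Console and PLIER per the submitters' processing notes, and the Exon Array Computational Tool is named in the series' text. Versions, build and filters were not given in the sources used here. Gene names came from the platform annotation, updated by Entrez number to RefSeq of GRCm38.p6. Of 23332 clusters, 14996 had 1 gene, 1019 several and 7317 none listed. Log2(intensity + 16) was fitted without further normalization in limma 3.58.1 (lmFit, eBayes; R 4.3.3) over all clusters and arrays, with 4 residual degrees of freedom. Each SE therefore pools the 4 lines, although their replicates were unequally spread. The log2 replicate SD over all clusters was 0.21 for null, 0.24 for α3, 0.27 for α9 and 0.42 for α3α9. With the null and α3 lines fitted alone, Egln3 and Txnip passed in α3 minus null. The fit gave 5 contrasts and an F test among lines, each adjusted by Benjamini-Hochberg over all clusters. It was tested on simulated data. Exon arrays give no read depth. Alternatives were 4 rescalings, 2 pseudocounts, a filter on dim clusters, trend and robust variance, a block on the replicate number, 1-gene clusters only, the compared lines alone, and each array left out. With 1 array of a line left out, the remaining one was assumed to vary like the other lines. Replicate numbers did not pair the arrays (correlations of replicate differences between lines from -0.21 to 0.07). The members and lists were chosen with earlier results of these data known. All members are accounted for, and genes of other lists are named where they passed with arrays not overlapping, up to 4 per list and comparison. Promoters came from RefSeq, with windows for 36 members. Protein sequences were not used here. Python 3.11.15 and matplotlib 3.10.9 drew the figures.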

Additional observations from a re-analysis of the deposited data

How the results depend on the processing

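Counts of members past the threshold depended on the scale of the arrays and on which arrays were fitted. Calls over all clusters changed too. After quantile normalization they rose from 1.30% to 8.21% (α3 minus null), 1.87% to 9.96% (α3α9 minus α9) and 4.32% to 17.1% (α9 minus null). They also rose from 3.28% to 18.8% (α3α9 minus α3) and from 10.4% to 31.7% (F test). In the other settings they were not counted, so shifts in member counts are no result about these genes. The member counts are given in this order: quantile normalization, centring on array medians, scaling to a common median, centring on bright clusters, leaving out the lowest 25% of clusters, an intensity trend, robust estimates, the replicate block, clusters with 1 gene, pseudocounts of 1 and 64, and, for comparisons of 2 lines, those lines alone. For α3 minus null the count of 0 became 7, 6, 6, 5, 2, 0, 0, 0, 4, 0, 1 and 2, and for α3α9 minus α9 the count of 0 became 4, 3, 3, 4, 2, 1, 1, 0, 3, 0, 2 and 0. For α9 minus null 5 became 7, 7, 7, 8, 6, 6, 5, 4, 6, 2, 6 and 3, and for α3α9 minus α3 3 became 8, 7, 7, 9, 5, 5, 3, 2, 7, 2, 5 and 3. The interaction count of 0 became 0, 0, 0, 0, 0, 0, 0, 0, 1, 0 and 0, and the 8 of the F test became 14, 13, 12, 14, 11, 10, 8, 7, 12, 4 and 11. Leaving out each array in turn gave 0 to 1, 0 to 1, 1 to 7, 2 to 5, 0 to 0 and 4 to 12 in the same order of comparisons. Of 8 member calls between lines, 3 held without each array, those of Pfkfb3 in both α9 comparisons and of Txnip in the α3α9 line against α3. No called change of a member, or among the 22 named from other lists by their rule, changed sign in any setting. The calls of Tfrc and Cd68 were not followed across the settings or with arrays left out. The replicate block ended the calls of Pfkm in the α9 line and of Ndrg1 in the α3α9 line, and the F test call of P4ha2. It also ended 6 of the 22 calls named from other lists, Pygb in the α9 line, Arnt in both α9 comparisons, Ak4 in both α3 comparisons and Rab20 in α3α9 minus α9. The files give no background signal, so values under 100 may lie near it. The cause of these shifts was not tested.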

Other observations

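Paired isoforms were also set against each other within each array, where the scale of the array largely cancels, with the pairs chosen once their values were known. The log2 value of P4ha2 minus that of P4ha1, taken relative to the mean of the null arrays, was 1.31 and 1.23 in the α3 line, 0.11 and -0.23 in the α9 line and 1.69 and 1.79 in the α3α9 line. The collagen prolyl hydroxylase subunits therefore differed unequally in both lines with α3. For Pfkm minus Pfkl the values were 1.41 and 1.39 in the α3 line, 0.60 and 0.21 in the α9 line and 1.66 and 1.61 in the α3α9 line, so the muscle-type phosphofructokinase stood higher relative to the liver type in every derived line, most where α3 was present. For Hk1 minus Hk2 they were -0.16 and -0.53 in the α3 line, 0.81 and 0.93 in the α9 line and 0.21 and 0.31 in the α3α9 line. The values of Slc16a1 minus Slc16a3 lay closer to null, at -0.18 and -0.40 in the α3 line, 0.26 and -0.07 in the α9 line and -0.12 and -0.30 in the α3α9 line. These are values of 2 arrays per line with no test.

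The row shared by Mdh1 and Pgam1, which cannot be given to either gene, ran from 2080.4 to 3049, and its largest difference between 2 lines was 0.23 ± 0.24 for α9 minus null (limma, adjusted p = 0.65).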
